A study of Mus musculus with 1047 samples.

Results

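Lyz2 and Lyz1 are the neighbouring mouse genes for lysozyme, and they are 2 of the 18081 gene symbols listed in the aged Smart-seq2 table. Lyz2 was selected on measured values of this study: it had ranked first in an earlier comparison of white with grey matter microglia from aged WT (wild type) mice. Lyz1 was added because its sequence is close enough to that of Lyz2 for reads to be shared. The difference between WT white and WT grey matter is therefore given here as a description, with no test. Both genes were followed through every deposited table.

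The study profiled single microglia, the resident macrophages of the brain, and asked how those of aged white matter differ from those of grey matter. It holds 1047 samples, most of them 1 cell each, sequenced with Smart-seq2, a plate method that reads whole transcripts without molecular identifiers. Viable CD45+CD11b+ cells were sorted after dissociation with actinomycin D, which stops transcription. Droplet libraries of unsorted brain cells were added. Grey matter was frontal cortex, and white matter was pooled from the optic tract, medial lemniscus and corpus callosum.

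The aged WT animals were C57BL/6J mice of 18 to 19 months, with 7 animals in grey matter and 6 of them also in white matter. The animals labelled Trem2ko are knockouts, per the labels, of Trem2, a lipid-sensing receptor of microglia. They numbered 6 in both tissues and were 18 months (2 animals), 20 months (3 animals) or 28 months old (1 animal). The 5xFAD animals carry human transgenes that cause amyloid deposits, and cells came from the prefrontal cortex of 5 of them, aged 7 months except 1 of 5 months. They were set against 2 WT animals of 6 and 7 months. Cells of postnatal day 14 came from a pool of 3 CX3CR1-GFP mice and were sorted as GFP+, after dissociation with or without actinomycin D, a choice the labels do not give per cell. The droplet libraries came from pools of 3 to 4 WT mice of 24 months and from pools of 2 ApoeKO (B6.129P2-Apoetm1Unc/J) mice of 18 months.

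Lysozyme cleaves the peptidoglycan of bacterial cell walls and is stored in the lysosomes and granules of phagocytes. In the mouse, Lyz2 is the form of macrophages, monocytes and neutrophils, whereas Lyz1 is best known from the Paneth cells of the intestine. Lyz2 is widely used as a marker of myeloid cells, and its promoter drives the LysM-Cre line.

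In GRCm38 with the GENCODE M21 annotation, Lyz2 (ENSMUSG00000069516.8) lies on the minus strand of chromosome 10 at 117277331 to 117282321. Lyz1 (ENSMUSG00000069515.6) lies beside it on the same strand at 117287797 to 117292868. Both are protein-coding genes with 4 exons, and their annotated transcripts hold 1316 and 1263 bases. The coding sequences, 447 bases each, were 95.1% identical, with 22 differing bases, and the 3′ untranslated regions were 95.6% identical. Exon 2 of each gene is shown to let the closeness be seen, since reads that fall between its differences cannot be told apart. It is coding throughout and covers chr10:117280641-117280805 in Lyz2 and chr10:117291029-117291193 in Lyz1, both on the minus strand of GRCm38. Capitals mark the 6 bases that differ.
Lyz2 exon 2: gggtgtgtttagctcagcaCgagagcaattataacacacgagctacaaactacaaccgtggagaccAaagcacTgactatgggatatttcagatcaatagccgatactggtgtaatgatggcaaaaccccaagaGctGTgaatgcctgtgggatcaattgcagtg
Lyz1 exon 2: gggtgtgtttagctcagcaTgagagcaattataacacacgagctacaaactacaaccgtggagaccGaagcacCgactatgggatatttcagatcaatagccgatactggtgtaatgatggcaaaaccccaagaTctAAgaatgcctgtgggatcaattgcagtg
Counted from the 5′ end of the exon, with the Lyz2 base first, the differences are C20T, A67G, T74C, G135T, G138A and T139A. The longest stretch of exon 2 without a difference is 60 bases, and the longest run the transcripts share is 118 bases. Of all 25-base windows of the Lyz1 transcript, 42.2% also occur in the Lyz2 transcript. That share was 16.1% for 50-base, 6.22% for 75-base and 2.06% for 100-base windows. The read length and the treatment of reads that fit both genes are not given in the sources used here, so counts of Lyz1 beside abundant Lyz2 carry this uncertainty.

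Each Smart-seq2 cell is its own GEO sample, so the counts of all cells of 1 tissue of 1 animal were added up, and each animal counts as a replicate. The aged set gave 25 libraries of 2 to 99 cells and 570376 to 59663083 reads, the prefrontal cortex set 7 libraries of 1448912 to 10507116 reads, and the day 14 pool 1 library of 3360432 reads. The 10 microglial markers had reads in all of these libraries, and their summed level in the aged ones was 25523 to 50425 CPM (counts per 1000000 reads of the library). Trem2 checked the genotype labels. It was at 1864 to 5568 scaled CPM in WT libraries and at 274 to 741 in libraries labelled Trem2ko, except those of animal A12. That animal had 1356 scaled CPM in grey and 1914 in white matter, which goes against its label in white matter, so the main values of the Trem2ko groups are also given without it.

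In aged WT animals, Lyz2 was higher in white than in grey matter in 6 of 6 animals. Levels below are CPM after TMM (trimmed mean of M-values) scaling of summed libraries of at least 5 cells. White matter held 1264 CPM in A2, 6614 in A3, 5095 in A4, 10930 in A5, 1354 in A6 and 1846 in A7. Grey matter of the same animals held 367, 593, 360, 697, 410 and 754 CPM. The lowest white matter library thus lay above the highest grey matter library. The white matter libraries averaged 4517 ± 3836 CPM (SD, n = 6) and the grey matter ones 530 ± 174 CPM (n = 6). The edgeR fit called 5 of 9923 genes (0.0504%) in this comparison, and since the choice of Lyz2 used it, nothing is read from that count. The grey matter values spanned a 2.09-fold range, and the white matter values an 8.65-fold one. Animals A3, A4 and A5 differed between tissues by 11.1-fold, 14.2-fold and 15.7-fold, whereas A2, A6 and A7 differed by 3.45-fold, 3.30-fold and 2.45-fold. The labels give no feature that sets the first 3 apart from the others, which were of the same ages and tissues.

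In animals labelled Trem2ko, Lyz2 was also higher in white than in grey matter in 5 of 5 animals, by a narrow range of ratios. A8 held 948 CPM in white matter against 514 in its grey matter, a 1.84-fold ratio. A9 held 1102 and 469 CPM, a 2.35-fold ratio, and A10 held 902 and 359 CPM, a 2.52-fold ratio. A11 held 1541 and 739 CPM, a 2.08-fold ratio, and A12 held 1202 and 753 CPM, a 1.60-fold ratio. Every white matter library of these animals lay above every grey matter one. The white matter libraries averaged 1139 ± 255 CPM and the grey matter ones 567 ± 173 CPM (SD, n = 5 each). Without A12 these means were 1123 and 520 CPM.

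In the fit of both genotypes with the animal as a block, the log2 difference of Lyz2 between white and grey matter was 1.04 ± 0.33 (SE) in animals labelled Trem2ko. It did not pass, with an adjusted p of 1.00 over 9923 genes (edgeR quasi-likelihood test, Benjamini-Hochberg). That test called 0 genes (0%) in this comparison, with 256 at an unadjusted p under 0.05, whereas DESeq2 called 72, not including Lyz2. In an exact permutation test over the 5 pairs, two-sided, p was 0.0625, the smallest that 5 pairs allow. Adjusted over the 3 such tests made for Lyz2, this permutation p was 0.188. The 3 tests were this one, 5xFAD against WT, and Trem2ko against WT in grey matter, whose p is not given. The log2 difference was 1.13 without A12. Some plates held cells of 1 tissue only; on plates that held both tissues it was 0.72 ± 0.31 (SE), with an adjusted p of 1.00. On 1 of the plates of A12, white matter cells held 630 CPM and grey matter cells 768 CPM, the reverse of the other plates with both tissues. On the shared plate of A8, A9 and A10, white and grey matter held 570 and 470, 1072 and 670, and 592 and 280 CPM, all before TMM scaling. Animal A13, of 28 months, was left out of the fits for its few cells. Its 4 white matter cells held 3479 CPM and its 2 grey matter cells 34.8 CPM, and with it the log2 difference was 1.55.

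**Figure D1:**
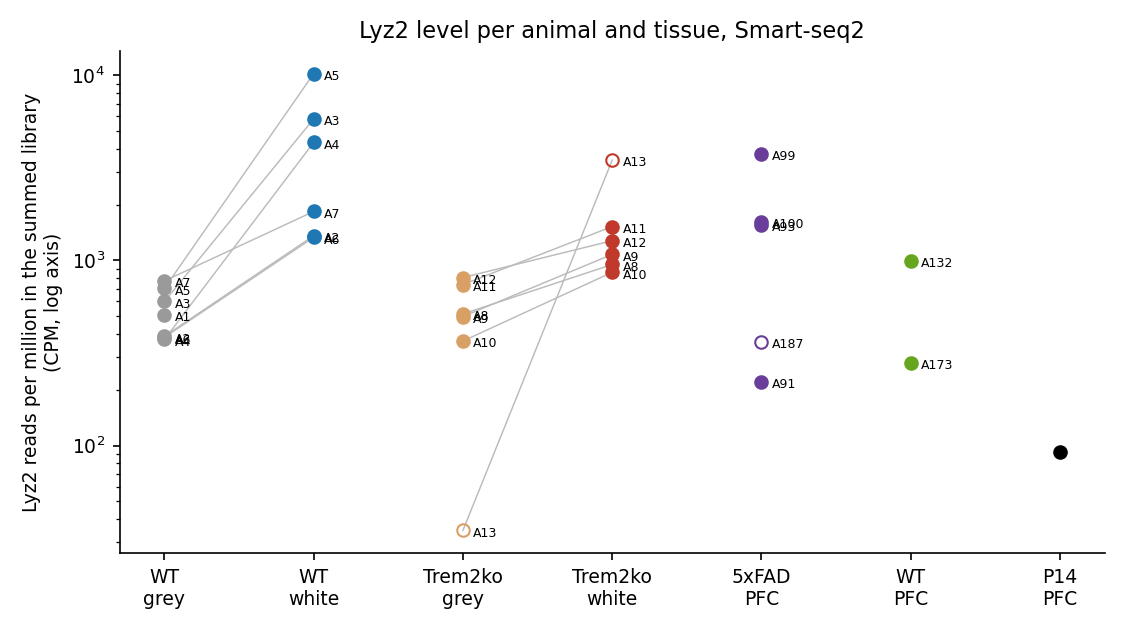
Lyz2 CPM of each summed Smart-seq2 library before TMM scaling (log axis), by group and animal. Grey lines join the tissues of 1 animal, and open circles are libraries of fewer than 5 cells. White matter lies above grey matter in every animal with both tissues, the steepest filled pairs are WT A3, A4 and A5, and the day 14 pool is lowest among the libraries of at least 5 cells, at 92.2 CPM.

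The tissue difference of Lyz2 was smaller on average in animals labelled Trem2ko than in WT animals. Per animal the log2 difference averaged 1.04 ± 0.26 (SD, n = 5) against 2.68 ± 1.20 (n = 6). The Trem2ko range, 0.67 to 1.33, overlapped the WT range of 1.29 to 3.97 only through WT A7 at 1.29 and A10 at 1.33. The fitted difference of the tissue effects was -1.65 ± 0.45 (SE), and -1.56 without A12. The WT libraries took part in the choice of Lyz2, so this difference is a description and no p is given for it. Among 9923 genes, edgeR called 0 (0%), with 244 at an unadjusted p under 0.05, and DESeq2 called 30. Each plate held 1 genotype, so plate and genotype cannot be told apart. The part of the table with A11, A12 and A13 held no WT cells.

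Within white matter, Lyz2 averaged 1106 ± 235 CPM (SD, n = 5) in animals labelled Trem2ko and 4465 ± 3811 CPM (n = 6) in WT animals. The ranges were 881 to 1474 and 1259 to 10897 CPM, so the groups overlapped. The log2 difference was -2.01 ± 0.48 (SE). Since Lyz2 was chosen for its high level in these WT white matter libraries, the difference is a description with no p. Over 8441 genes in this comparison, edgeR called 0 (0%), with 281 at an unadjusted p under 0.05, and DESeq2 called 14. Without A12 the edgeR value was -2.03, and with A13 added it was -0.84.

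Within grey matter, Lyz2 levels did not separate the genotypes. The means were 575 ± 166 CPM (SD, n = 5) in animals labelled Trem2ko and 549 ± 168 CPM (n = 7) in WT animals, with ranges of 369 to 761 and 372 to 795 CPM. The log2 difference was 0.07 ± 0.28 (SE), and its sign turned without A12 (-0.046) and with relative log expression scaling (-0.013). The WT grey matter libraries were the other arm of the comparison that chose Lyz2, so no p is given. Over 8290 genes edgeR called 1 (0.0121%). The order of the 4 aged groups by mean was therefore WT white, Trem2ko white, then both grey matter groups, whose levels overlapped almost fully.

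Single cells showed a wide spread of Lyz2 inside every aged library. Here a cell's CPM is its Lyz2 reads over its own total. Group values in this paragraph pool the cells of all animals unless given per animal, so animals with more cells weigh more. A11 and A12 gave 95 and 99 of the 297 Trem2ko white matter cells, and 75 and 83 of the 267 grey matter ones. The pooled median cell held 1630 CPM in WT white, 604 in Trem2ko white, 288 in WT grey and 172 in Trem2ko grey matter. The median per animal in WT white matter ran from 738 CPM in A2 to 2837 in A4, with a middle value of 1456. In libraries of at least 5 cells, the middle value was 702 CPM in Trem2ko white, 117 in WT grey and 203 in Trem2ko grey matter. The order of the grey matter groups was thus the reverse of that in pooled cells. Cells above 1000 CPM made up 61.0% of 136 WT white, 37.7% of 297 Trem2ko white, 22.8% of 145 WT grey and 24.3% of 267 Trem2ko grey matter cells. Nearly every cell had at least 1 Lyz2 read, from 95.9% in WT grey to 100% in WT white matter. After each cell was thinned to 50000 reads, these shares were 99.0% in WT white, 96.5% in Trem2ko white, 84.4% in WT grey and 90.7% in Trem2ko grey matter. Without A12, the median cell held 718 CPM in Trem2ko white and 153 in Trem2ko grey matter, and 39.4% and 20.7% of cells lay above 1000 CPM. Most cells of every group thus had Lyz2 reads, and the pooled groups differed more in the amount per cell.

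A small share of the cells held a large share of the Lyz2 reads. The 10% of cells with the most Lyz2 reads held 61.5% of them in WT white, 61.6% in Trem2ko white, 45.1% in WT grey and 60.0% in Trem2ko grey matter. These shares pool animals of different depth. Within single libraries of at least 10 cells the share had a median of 51.0% in WT white, 49.9% in Trem2ko white, 48.8% in WT grey and 50.8% in Trem2ko grey matter. In A5, the animal with the highest white matter level, 1 cell of 16 held 43.0% of the reads. The median cell is less open to such cells. In WT animals its log2 difference between white and grey matter averaged 2.98 ± 1.35 (SD, n = 6) and was positive in 6 of 6. A4 had the largest, at 5.10, and A7 the smallest, at 1.14. In animals labelled Trem2ko it averaged 1.64 ± 1.88 (SD, n = 5) and was positive in 4 of 5. The median cells of white and grey matter held 702 and 327 CPM in A8, 1023 and 59.2 in A9, 728 and 86.8 in A10, 268 and 203 in A11, and 158 and 214 in A12. The difference thus rested on A8, A9 and A10, was small in A11 and turned in A12. A11 and A12 lay in the other part of the table and had deeper libraries, so part, depth and animal cannot be told apart here. Without A12 the difference averaged 2.16 ± 1.71 (SD, n = 4). Over all 5 pairs its exact permutation p, two-sided, was 0.188 before and 0.562 after adjustment over 3 tests.

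**Figure D2:**
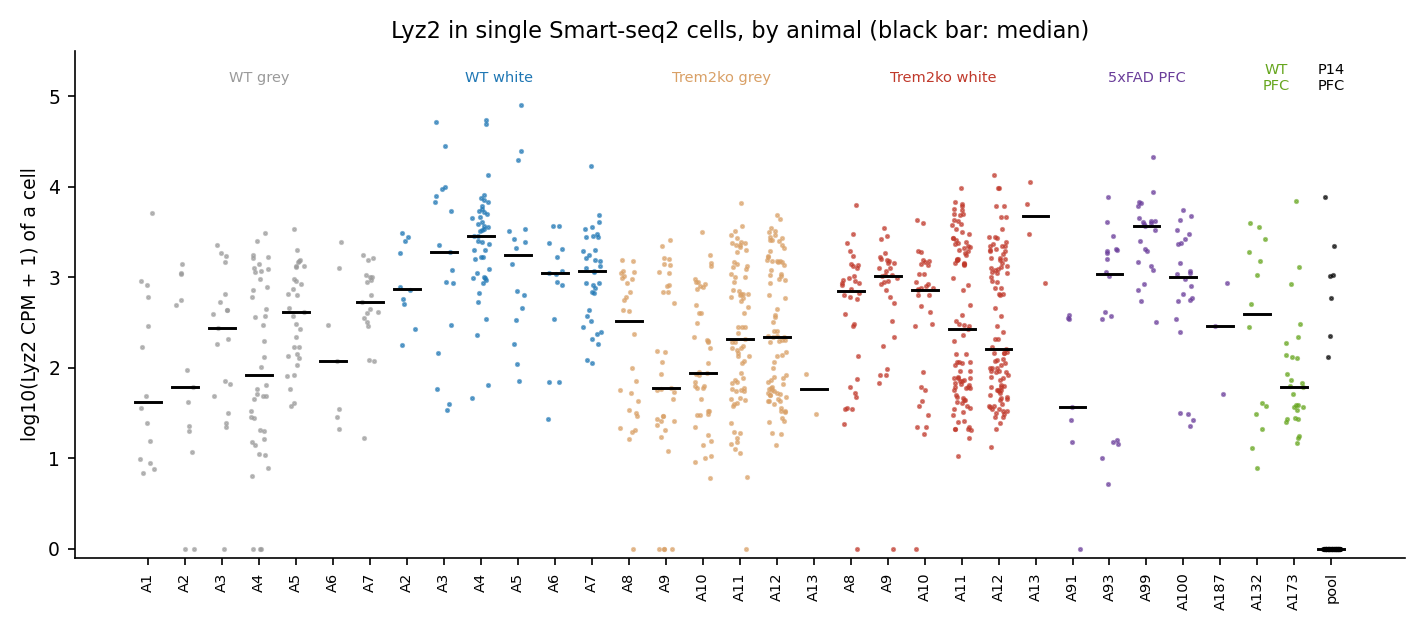
Lyz2 in single Smart-seq2 cells as log10(CPM + 1), 1 column per animal within each group, with a black bar at the median. WT white matter columns sit highest, the columns of animals A11 and A12 spread across low and high cells in both tissues, and all but 7 of 75 day 14 cells lie at 0.

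The 10 aged cells with the highest Lyz2 CPM came from white matter, 9 from WT animals and 1 from A12. The highest, in A5, held 78720 CPM, followed by cells of A4 with 53853 and A3 with 51800 CPM, and the tenth held 13241 CPM. They held 129003 to 355506 CPM of Apoe, the lipid carrier apolipoprotein E. None had a read of Mrc1, the mannose receptor of border macrophages, or of Ccr2, the receptor of recruited monocytes. S100a8, a granule protein of neutrophils, had at most 4 reads in any of them. Over the whole aged set, Mrc1 had 50 reads in 18 of 845 cells and Ccr2 had 87 reads in 16 cells. The summed level of the 10 border macrophage markers was 86.6 to 316 CPM in WT white and 206 to 1737 CPM in WT grey matter, and Stab1, a scavenger receptor, gave 98.2% of the markers' level over the whole aged set. The 8 measured monocyte markers summed to at most 47.1 CPM in any aged library. The 10 neutrophil markers summed to 434 to 698 CPM in WT white and 533 to 889 CPM in WT grey matter, of which Csf3r, the receptor for granulocyte colony-stimulating factor, gave 91.8% over the set. When cells with 1% or more of their reads from markers of another type were left out, the Lyz2 log2 difference in animals labelled Trem2ko stayed at 1.04. The 10 microglial markers summed to less in WT white matter, 25523 to 35557 CPM, than in WT grey matter, 36503 to 44401 CPM, and their part in the Lyz2 difference was not tested.

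Among the genes ranked, those whose levels followed Lyz2 most closely were Apoe and Fth1. Ribosomal protein genes, mitochondrial genes, predicted or unnamed genes and some sex-linked genes were left out of the ranking by name. Over 23 aged libraries and 5380 genes of at least 20 CPM on average, Pearson's r of log2(CPM + 1) with Lyz2 was 0.87 for Apoe and also 0.87 for Fth1, a ferritin subunit. It was 0.79 for Spp1 (osteopontin), 0.77 for Lpl (lipoprotein lipase), Cd52 (a small surface glycoprotein), Itga5 (an integrin) and Cybb (the phagocyte oxidase subunit), and 0.75 for Ifi27l2a, an interferon-induced gene. These libraries share tissue and genotype, so the values are descriptions. Apoe averaged 47159 ± 40285 CPM (SD, n = 6) in WT white, 9111 ± 3031 (n = 5) in Trem2ko white, 1555 ± 1088 (n = 7) in WT grey and 477 ± 161 (n = 5) in Trem2ko grey matter. The group order of Apoe thus matched that of Lyz2 in white matter. Between the grey matter groups Apoe stood at a log2 difference of -1.74 ± 0.45 (SE), with an adjusted p of 0.999 (edgeR quasi-likelihood), and Lyz2 at 0.07. Once group means were taken off, Fth1 alone stayed among the 8 closest genes, at 0.70. The others then were Ubash3b at 0.79, Timp2 and Ddx3x at 0.74, Golga7 at 0.73, Mmp2 at 0.71, and Npc2 and Atp2c1 at 0.70. Timp2 is an inhibitor of metalloproteinases, Mmp2 is a metalloproteinase, and Npc2 is a cholesterol-binding protein of the lysosome.

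**Figure D3:**
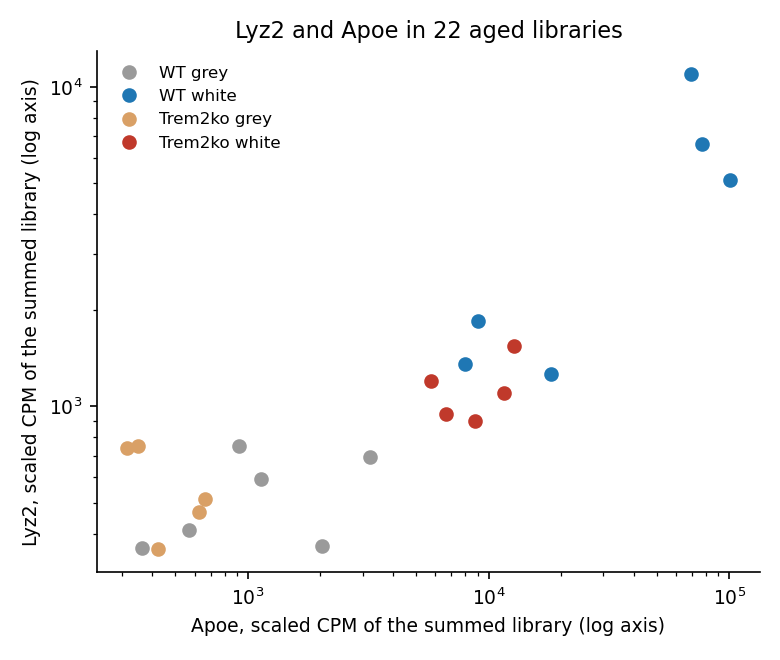
Lyz2 against Apoe in the 22 summed libraries of the 11 aged animals with both tissues (CPM after TMM scaling, log axes), coloured by group. The WT white matter libraries of A3, A4 and A5 stand at the upper right, the other WT white and the Trem2ko white libraries lie together in the middle, and grey matter libraries lie low on both axes.

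Within single libraries the relation between Lyz2 and Apoe varied by group. Across cells of 1 library, Spearman's rho between the 2 genes had a median of 0.27 over 22 aged libraries of at least 10 cells, with a range of -0.28 to 0.85, and was positive in 20. It was 0.46 to 0.85 in the 6 WT white, -0.28 to 0.39 in the 6 WT grey, 0.10 to 0.26 in the 5 Trem2ko white and 0.11 to 0.36 in the 5 Trem2ko grey libraries. The lowest WT white library thus lay above every other library of the aged set. The median rho with Cst7, a cystatin of activated microglia, was 0.23 over 17 libraries. Genes close to Lyz2 between libraries had lower medians within them, at 0.18 for Fth1, 0.11 for Spp1 and 0.02 for Lpl. These medians are not split by group, and Spp1 and Lpl had few reads in grey matter. Their means were 2.40 and 6.05 CPM in WT grey, against 473 and 455 CPM in WT white matter. In the prefrontal cortex set their median rho with Lyz2 was 0.32 and 0.50. In the aged set the median rho was negative for the homeostatic genes, at -0.17 for P2ry12, a purinergic receptor, -0.19 for Selplg and -0.15 for Tmem119. With the total reads of the cell it was -0.05. Cells of 1 library share an animal and a depth range, so no p is given.

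Genes that work with lysozyme were read from the tissue comparison of animals labelled Trem2ko. In that comparison 0 of 9923 genes passed (0%), 256 did so at an unadjusted p under 0.05, the median log2 difference over all genes was -0.00, and 49.9% were positive. Of 31 tested lysosomal hydrolases, 22 were positive, with a median of 0.14. Cathepsin S (Ctss) stood at 0.45 ± 0.11 (SE), and legumain (Lgmn) and cathepsin D (Ctsd) at 0.09 and -0.05. Of 15 tested genes of peptidoglycan sensing and muropeptide transport, 10 were positive. Cd14, a co-receptor for bacterial products, stood at 0.24, and Tlr2, which senses bacterial lipopeptides, at 0.86 ± 0.67 (SE). Of 9 tested antimicrobial and granule proteins, 3 were positive, with a median of -0.36. Of the 4 with the highest level, the metal transporter Slc11a1 stood at 0.38, the pore-forming Mpeg1 at 0.62, the oxidase subunit Cybb at 3.53 ± 1.98 (SE) and the calcium-binding S100a9 at -0.15. Of 13 transcription factors known to act on the lysozyme gene or in myeloid cells, 7 were positive. Spi1 (PU.1) stood at -0.06 ± 0.20 (SE) and Irf8 at -0.09 ± 0.16. Of 13 tested activated-state genes 12 were positive, with a median of 1.57, led in level by Apoe at 4.25 ± 0.68 (SE). Of 10 homeostatic genes 2 were positive, with a median of -0.32, and of 10 interferon genes 9 were positive, with a median of 2.91. Among the interferon genes, Bst2 had the highest level, 266 CPM, and stood at 0.11 ± 0.44 (SE). Ifit3, Usp18 and Irf7, at 38.3 to 57.4 CPM, stood at 1.98 to 5.19 with SEs of 1.66 to 2.11, so the list median is imprecise. Without A12, 17 of 31 hydrolases and 11 of 13 activated-state genes were positive, with medians of 0.10 and 0.84, and 0 genes of any list passed. Cd14 then stood at 0.05 and Tlr2 at 0.57, whereas Ctss stood at 0.38 and Apoe at 4.31. The lists were chosen with results of these data known, and the activated-state genes include genes known to change here.

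The same lists were set between genotypes in white matter, where Lyz2 stood at -2.01. There 0 of 8441 genes passed (0%), the median over all genes was 0.08 and 54.3% were positive. Of 13 tested activated-state genes, 0 were positive, with a median of -1.43, Apoe at -2.39 ± 0.68 (SE) and Fth1 at -0.93 ± 0.27 (SE). Of 30 lysosomal hydrolases 12 were positive, with a median of -0.15. Of 10 homeostatic genes 9 were positive, with a median of 0.32. Spi1 stood at 0.07 and Irf8 at 0.30. Without A12 the activated-state median was -1.24, and the homeostatic one 0.38. These libraries are partly the ones in the tissue comparison, so the values are set side by side only. Of the lysozyme family, Lyz2 and the sperm lysozyme-like gene Lyzl4 passed the filter on low counts in the tissue fit, out of 10 members listed. Lyzl4 averaged 5.87 CPM and stood at -5.79 ± 2.49 (SE) between the tissues of animals labelled Trem2ko, the opposite sign to Lyz2, with an adjusted p of 1.00 (edgeR quasi-likelihood).

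In the prefrontal cortex set, Lyz2 varied more among 5xFAD animals than between the groups. The 5xFAD animals held 206 CPM in A91, 1636 in A93, 4315 in A99 and 1652 in A100, after TMM scaling. The WT animals held 1009 CPM in A132 and 245 in A173. The groups overlapped, since A91 lay below both WT animals while the other 5xFAD animals lay above both. The means were 1952 ± 1715 CPM (SD, n = 4) and 627 ± 541 CPM (n = 2). The log2 difference was 1.64 ± 0.92 (SE), with an adjusted p of 1.00 over 9668 genes (edgeR quasi-likelihood, Benjamini-Hochberg). That test called 0 genes (0%), with 315 at an unadjusted p under 0.05 and 151 called by DESeq2, not including Lyz2. The exact permutation p, two-sided, was 0.4 before and 0.6 after adjustment over 3 tests, and the smallest that 4 animals against 2 allow is 0.133. The log2 difference was 0.87 without A99, 0.93 without WT A173 and 2.99 without WT A132. It was 0.76 on the mean CPM of single cells. Another 5xFAD animal, A187 of 5 months, gave only 3 cells, at 362 CPM, and was left out of the fit.

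Plates with both genotypes gave opposite signs. On 1 plate, 7 cells of 5xFAD A91 held 220 CPM of Lyz2 and 14 cells of WT A132 held 995 CPM, before scaling. On the other, 23 cells of 5xFAD A99 held 3762 CPM and 26 cells of WT A173 held 291 CPM. The median cell showed the same pair of directions, with 36.1 against 391 CPM on the first plate and 3655 against 60.3 CPM on the second. Each plate held 1 animal per genotype, so animal and genotype cannot be told apart there. Apoe followed Lyz2 within the libraries of this set, with a median rho across cells of 0.69 and a range of 0.52 to 0.80 over 5 libraries. P2ry12 and Tmem119 had medians of -0.53 and -0.51, and the cell's total reads -0.17. Between the groups, 13 of 14 tested activated-state genes and 18 of 30 lysosomal hydrolases were positive, against 54.2% of all genes, and 0 of either list passed.

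Some of the cells with the most Lyz2 in this set also carried reads of border macrophages. Of its 10 cells with the highest Lyz2, 4 had reads of Mrc1 and 0 had reads of Ccr2. The highest, in 5xFAD A99, held 21123 CPM of Lyz2 and 620 CPM of Mrc1. The highest WT cell, in A173, held 6850 CPM of Lyz2 and 1608 CPM of Mrc1, and alone carried 42.9% of the Lyz2 reads of its animal. The 10 border macrophage markers summed to 149 to 594 CPM in 5xFAD and 273 to 387 CPM in WT libraries. Without the 1 cell in which markers of another type made up 1% or more of the reads, the log2 difference was 1.76 ± 0.99 (SE).

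At postnatal day 14, Lyz2 was detected in few of the sorted cortical cells. It had reads in 7 of 75 cells (9.33%), and in 8.33% of the 24 cells that had 50000 reads to be thinned to. The pool held 310 Lyz2 reads, or 92.2 CPM. Of the 7 cells, 4 also had reads of Mrc1 and held 60.3% of the Lyz2 reads, though 2 of them held only 4 Lyz2 reads each. Over the whole pool, Mrc1 had reads in 12 of 75 cells. The cell with the most Lyz2, at 7657 CPM, also held 7257 CPM of Mrc1, and the next, at 2217 CPM, held 1281 CPM of Mrc1. These 2 cells held 57.7% of the Lyz2 reads, and the pool without them held 39.4 CPM. The other cells with Lyz2 ran from 131 to 1048 CPM, and those with the 3 highest values among them had no Mrc1 read. The median depth was 42361 reads per cell, against 58019 to 703220 in the aged libraries. The table came from another mouse line and gate and was scaled apart, so no difference from the aged cells was tested.

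The droplet data placed microglial Lyz2 beside that of other cells. The aged table held 21196 cells with at least 500 UMIs (unique molecular identifiers), with a median of 7131, in 28 clusters made without Lyz2 and Lyz1. The ends of the cell names form 5 marks, which no label ties to samples, and for 1 of the white matter libraries the labels conflict on the genotype (WT or ApoeKO), so the table is taken as 1 pool without replicates or tests, and 41 cell barcodes recur between marks. Intervals are 95% Poisson intervals for counting error alone. Lyz2 was highest in the monocyte-like cluster of 334 cells, at 93.2 UMIs per 10000 UMIs (92.2 to 94.2). That cluster was led by the class II genes H2-Eb1 and H2-Ab1 together with Ccr2, and 6 of 10 monocyte markers stood above the other clusters in it. The border macrophage-like cluster of 179 cells held 67.8 (66.4 to 69.3) and the neutrophil-like cluster of 80 cells 55.6 (53.6 to 57.8). An unnamed cluster of 1001 cells led by Spp1, Lpl and Ccl4 held 52.6 (52.2 to 53.1). The 9960 microglia-like cells held 9.32 (9.25 to 9.38), so the level in microglia-like cells was below that of each of these myeloid clusters. The Spp1-led cluster stayed outside the microglia-like class because 2 of the 10 microglial markers stood above the other clusters in it, fewer than naming required. The class and this cluster together held 15.3 (15.2 to 15.4). With coarser clusters, at resolution 0.5, the microglia-like class held 15.6 and the monocyte-like 69.6 (68.9 to 70.4). The border macrophage-like class then held 68.2 (66.8 to 69.7), so the intervals of the latter 2 overlapped. With cells of at least 1000 UMIs the microglia-like and monocyte-like classes held 9.43 and 149, and the order of these 2 classes did not change.

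Among the microglia-like clusters, Lyz2 ran with Apoe for the most part. The largest, cluster 0 of 4278 cells, held 4.48 Lyz2 and 7.33 Apoe UMIs per 10000 and was led by P2ry12 and other homeostatic genes. Cluster 3, of 1669 cells and led by Gpr84 and Cst7, held 20.2 Lyz2 and 277 Apoe. Cluster 13, of 350 cells and led by Cxcl13 and interferon genes such as Ifit2, held 14.2 Lyz2 and 175 Apoe. Clusters 2 and 4 held 9.56 and 6.62 Lyz2 with 53.7 and 23.9 Apoe. Cluster 16, with 4.59 Lyz2 and 29.8 Apoe, broke that order. The unnamed Spp1-led cluster held 458 Apoe. Over cells, the Spearman rho of Lyz2 and Apoe was 0.75 in that cluster, 0.54 in cluster 3 and 0.08 in cluster 0.

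**Figure D4:**
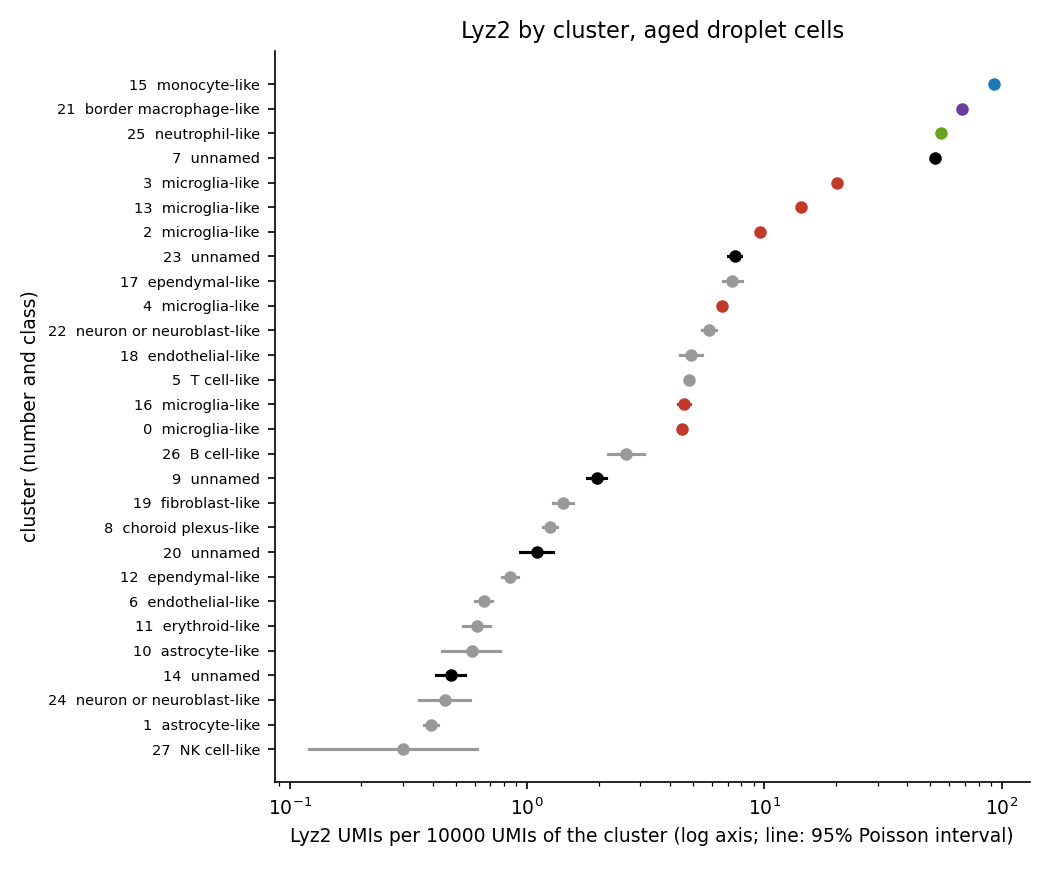
Lyz2 UMIs per 10000 UMIs (log axis) in the 28 clusters of the aged droplet table, with 95% Poisson intervals for counting error. Monocyte-like, border macrophage-like, neutrophil-like and the unnamed Spp1-led cluster 7 lie above 50, the microglia-like clusters run from 4.48 to 20.2, and the NK cell-like cluster 27 and the larger astrocyte-like cluster 1 are lowest, at 0.30 and 0.39.

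Lyz2 was present in most microglia-like cells at a depth that also gave it to some cells of other types. At least 1 Lyz2 UMI was found in 85.4% of microglia-like cells, at a median of 7396 UMIs per cell, and in 12.6% of astrocyte-like cells, at a median of 6680. Thinned to 1000 UMIs per cell, these shares were 46.1% and 2.65%. The astrocyte-like level was 0.40 UMIs per 10000 (0.38 to 0.43), and no doublet caller was run. Other named classes outside the myeloid ones, T cell-like cells aside, held 0.30 (NK cell-like) to 3.15 (neuron or neuroblast-like). Among them, erythroid-like cells held 0.61, endothelial-like 0.95 and fibroblast-like 1.42, so no single level can be taken as the background. T cell-like cells held 4.80, but 94.5% of their Lyz2 UMIs lay in the 10% of cells with the most. The corresponding share was 45.5% in microglia-like cells, whose median cell held 5.46 Lyz2 UMIs per 10000 and whose 90th percentile was 18.9. In border macrophage-like cells it was 32.7%, with a median cell of 62.6.

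The second droplet table holds the libraries labelled ApoeKO. Of its cells, 2730 carried either of 2 marks that no label explains, and 11224 further columns without a mark were not used. Its microglia-like cells held 13.3 Lyz2 UMIs per 10000, with 14.5 under the mark L7 and 12.5 under L8. They include a 59-cell cluster led by class II genes and chemokines, with Lpl and Spp1 among its top genes, which held 62.7. Without that cluster, as in the aged table, the microglia-like cells held 8.92 (8.63 to 9.22), with 10.8 under L7 and 7.74 under L8. The neutrophil-like cells, 10 in number, held 85.5. Astrocyte-like cells held 0.28. Apoe in the microglia-like cells was at 0.054 UMIs per 10000 under the mark L7 and at 67.2 under the mark L8, so the cells marked L8 go against the ApoeKO label of the table. Where the 3′ tags lie relative to the disrupted part of the gene was not checked. Neutrophil-like, microglia-like and astrocyte-like cells thus stood in the same order as in the aged table, and no difference between the tables was tested, since depth and age differ and the genotype of the marks is in doubt.

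Lyz1 was at the edge of detection in sorted cells. In the aged Smart-seq2 set it had 35 reads in 23 of 845 cells, against 300176 reads of Lyz2, which is 0.0117% of the reads of both. By group these were 17 reads in WT white, 0 in WT grey, 14 in Trem2ko white and 4 in Trem2ko grey matter, where Lyz2 had 49587, 6620, 173875 and 70094 reads. In the prefrontal cortex set it had 19 reads in 12 of 116 cells against 69490 of Lyz2, or 0.0273%, and the day 14 table does not list it. Every Smart-seq2 cell with a Lyz1 read also had Lyz2 reads, with a median of 1100 in the aged set, against 50 in the cells without Lyz1. Nearly every aged cell had Lyz2 reads, and these medians are not scaled to the depth of the cells. The largest Lyz1 count, 7 reads, lay in the A3 white matter cell with 934 Lyz2 reads. Lyz1 did not pass the filter on low counts in any fit. Joining its reads to those of Lyz2 left the Lyz2 log2 differences at 1.04 in Trem2ko tissue, -2.01 between genotypes in white matter and 1.64 in 5xFAD. Whether these reads come from Lyz1 transcripts or from shared sequence was not tested.

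The droplet data held a few cells with clear Lyz1. Of 422 Lyz1 UMIs in the aged table, most lay in 3 monocyte-like cells. The first had 149 Lyz1 and 402 Lyz2 UMIs, so that Lyz1 made up 27.0% of both. The second had 79 and 434 UMIs, or 15.4%, and the third 30 and 113, or 21.0%. They carried 3 different marks. In all other cells Lyz1 made up 0.0860% of the lysozyme UMIs, 164 against 190606 of Lyz2, and no other cell held more than 8. Thus 3 of 334 monocyte-like cells stood apart by the share of Lyz1 as well as by its count. Microglia-like cells held 42 Lyz1 UMIs in 37 cells, or 0.0055 per 10000 UMIs. Of the 125 cells with Lyz1, 4 had no Lyz2. In the second table Lyz1 had 23 UMIs in 21 cells, or 0.348% of both, and 2 of those cells had no Lyz2.

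**Figure D5:**
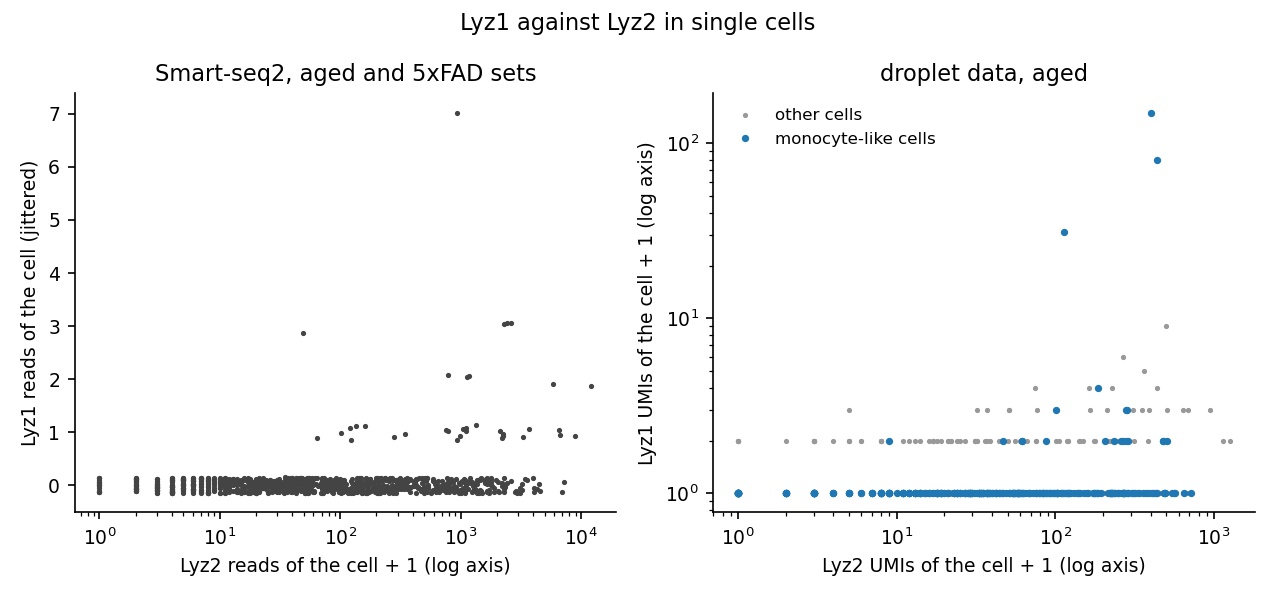
Lyz1 against Lyz2 in single cells. Left, reads of Smart-seq2 cells of the aged and prefrontal cortex sets, with Lyz1 at 7 reads or fewer. Right, UMIs + 1 in the aged droplet table on log axes, where 3 monocyte-like cells with 149, 79 and 30 Lyz1 UMIs lie far above all others.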

How the data were processed

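Every deposited table holds counts that the authors left unscaled, of reads for Smart-seq2 cells and of UMIs for droplets, as whole numbers with a different total in each cell. The genome build mm10 and the tools Cell Ranger 4, Trim Galore, FastQC and bcl2fastq are named in the submitters' processing notes. Which aligner and counter served the plate data is not given in the sources used here. Both lysozyme genes, all gene lists and all tests were chosen with earlier results of these data known. Named genes were Lyz2 and Lyz1, the 4 members of each list with the highest mean level, the 8 genes with the highest correlation with Lyz2 before and the 8 after group means were taken off, and Trem2 and Apoe as label checks. Some genes that this rule covers are not reported here. State genes and cell type markers named beyond these, such as Cst7, P2ry12, Mrc1 and Ccr2, were taken from the same lists.

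In the aged table, 55 pairs of rows were joined whose symbols are synonyms, each symbol with reads in a different part of the table. After that, 13310 of 18081 symbols were kept. Those with reads in 1 part of the table only (4473) or in neither (243) were left out, which removed 0.141% of reads. Repeated listings of wells (2) were left out, so that 845 cells were used. Reads were summed per animal and tissue, with at least 5 cells, and fitted with edgeR 4.0.16 (R 4.3.3; filterByExpr, TMM, robust quasi-likelihood, Benjamini-Hochberg over all genes, threshold 0.05). The labels name the animal of each cell, so the tissue fit has the animal as a block. Same-animal correlations of deviations were 0.01 to 0.12, and 7 of 11 animals correlated best with themselves. Labels give no litters, so p-values measure the spread between these animals. Exact permutation tests used scipy 1.17.1.

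Droplet cells of at least 500 UMIs were clustered with scanpy 1.11.5 and leidenalg 0.10.2 (resolution 1) without Lyz2 and Lyz1, and clusters were named from fixed markers, so the names are rebuilt here. No doublet caller was run. Columns without a mark (11224) were not used. Smart-seq2 reads are not independent molecules, and intervals cover counting error only. Shares after thinning leave out cells below 50000 reads or 1000 UMIs. Scripts were tested on simulated counts. Alternatives covered DESeq2 1.42.0, other scalings and filters, cell minimums, per-cell means and medians (the medians and permutation tests chosen after seeing the data), plates with both tissues, and leaving out each animal. Sequences came from GENCODE M21 transcripts (GRCm38).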

Additional observations from a re-analysis of the deposited data

Results flagged for a closer look

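The share of cells above 1000 CPM of Lyz2 was 7.14% in the grey matter of WT animal A1 (1 of 14 cells), further from the other WT grey matter animals, at 21.1% to 28.6%, than the spread among those 6. A1 is also the WT animal without white matter cells, and its Lyz2 level in summed reads, 507 CPM, lay within the range of its group, since 1 cell of 5129 CPM held most of its reads. This was 1 of 15 combinations of group and measure examined for such a sample, and chance alone marks about 1 in 20. The measures of a group share its animals, so these combinations are not independent.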

How the results depend on the processing

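The Lyz2 log2 difference between tissues kept its sign under all 26 alternatives in animals labelled Trem2ko (0.72 to 1.64, adjusted p 0.188 to 1.00), and it was positive under all 25 in WT animals (2.41 to 3.09). The 0.188 is an exact permutation p adjusted over 3 tests, whereas the p-values of the fits are adjusted over genes. The difference of the tissue effects stayed negative under all 24 (-2.08 to -1.13). In white matter DESeq2 alone of 22 alternatives put Lyz2 past the threshold, at -2.08, in libraries that had served to choose it, which makes this no independent test. In grey matter the sign turned with DESeq2 (-0.013), with relative log expression scaling (-0.013) and with no minimum of cells (-0.089); the cause was not tested. Leaving out each animal in turn gave 0.97 to 1.13 and 2.41 to 2.97 for the tissue differences of Trem2ko and WT animals, -1.94 to -1.38 for their difference, -2.21 to -1.53 in white matter, -0.046 to 0.206 in grey matter, with the sign turned without A2, A4, A11 or A12, and 0.87 to 2.99 for 5xFAD. Without the replicate block by animal, the tissue differences were 1.01 and 3.09 and their difference -2.08, with no call of Lyz2 changed in the tested comparisons; the genes called in the WT tissue comparison went from 5 to 10. Between 0 and 1 genes (Trem2ko tissue), 0 and 13 (WT tissue), 0 and 1 (white matter), 0 and 2 (grey matter) and 0 and 16 (5xFAD) were called by the edgeR alternatives, against 72, 290, 14, 9 and 151 by DESeq2 and 30 for the difference of tissue effects. Thinned to 20000 reads, cells with Lyz2 made up 81.6% (Trem2ko grey), 84.7% (Trem2ko white) and 71.6% (WT grey). At resolution 0.5 the droplet levels per 10000 UMIs were 15.6 (microglia-like), 69.6 (monocyte-like) and 0.76 (astrocyte-like). With cells of at least 1000 UMIs they were 9.43, 149 and 0.22, and 51.8 (border macrophage-like), since the clusters then hold other cells. Few animals, uneven cells per library and a single pool of droplet cells limit all of these values.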

Other observations

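The marks at the ends of the aged droplet cell names are not tied to samples, so their values are given without a comparison of conditions. In microglia-like cells Lyz2 was at 5.04, 5.51 and 4.72 UMIs per 10000 under the marks 1_1_1, 1_1_2 and 1_3, and at 15.9 and 15.2 under the marks 1_2_1 and 1_2_2. The values thus fell into a low cluster of 3 marks and a high cluster of 2 marks. In endothelial-like cells Lyz2 was at 0.57, 0.55 and 2.20 under 1_1_1, 1_3 and 1_2_1, so the mark with more Lyz2 in microglia-like cells also had more in a class of low Lyz2.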
